A study of Mus musculus with 32 samples.

Results

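Nitric oxide, arginine and itaconate metabolism was followed through 8 genes in bone marrow-derived macrophages (BMDMs): Nos2, Slc7a2, Ass1, Gch1, Arg1, Arg2, Odc1 and Acod1. They were taken by name, as every probe whose gene name on the array is 1 of these 8, and Acod1 is on the array under its older name Irg1. This gave 13 probes, and 8 of the 16089 genes tested. BMDMs were grown in macrophage colony-stimulating factor (M-CSF) from WT (C57BL/6) mice and from Ifnar1-/- mice, in which no cell has the Ifnar1 chain of the receptor for type I interferons. Cells of each genotype were left untreated or received LPS (100 ng/mL), IFNβ (1000 U/mL), zVAD, LPS+zVAD, IFNβ+zVAD, LPS+zVAD+Nec1 or IFNβ+zVAD+Nec1, and RNA was taken after 6 h. These are the doses of the sample labels, which give none for zVAD or Nec1, and the study's text gives other doses of LPS and IFNβ. LPS is a bacterial product sensed by the receptor TLR4, zVAD blocks caspases, and Nec1 blocks the kinase RipK1, which drives necroptosis. Each of the 16 groups had 2 arrays. Nothing says that the 2 arrays of a group came from separate mice, so the p-values measure only the spread between these samples, which may be technical.

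Inflammatory macrophages make nitric oxide with inducible nitric oxide synthase (the product of Nos2), which splits L-arginine into nitric oxide and citrulline. Slc7a2 encodes a transporter that brings arginine into the cell, Ass1 encodes argininosuccinate synthase, which starts the return of citrulline to arginine, and Gch1 encodes GTP cyclohydrolase, the first enzyme on the way to tetrahydrobiopterin, the cofactor of the synthase. Arginase competes for the same arginine and has a cytosolic form (Arg1), long used as a marker of alternatively activated macrophages, and a mitochondrial form (Arg2). Ornithine from arginase feeds ornithine decarboxylase (Odc1) and so the polyamines. Acod1 encodes the enzyme that makes itaconate from cis-aconitate and is among the genes known to be strongly induced in macrophages by LPS.

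Values are log2 intensities after quantile normalization, changes are differences of group means on that scale with their standard errors (SE), and a gene is called changed at an adjusted p under 0.05 from limma. The arrays lay on 4 slides, each with the 8 treatments of 1 genotype and 1 replicate number, so within 1 treatment genotype and slide cannot be told apart. Nor can the scan, since the 2 WT slides were scanned apart and both Ifnar1-/- slides together in another scan. Of the 3 Ifnar1 probes, 2 separated the genotypes without overlap, at 7.88 to 10.23 and 9.94 to 11.88 on the WT arrays against 5.82 to 7.35 and 7.29 to 8.73 on the Ifnar1-/- arrays. All 8 macrophage markers examined were well above background on all 32 arrays. The neutrophil markers moved with genotype: 7 of 9 were above background on every array (Ly6g on 17 and Cxcr2 on 8), and their summed log2 level ran from 13.5 to 15.56 in WT and from 15.66 to 16.83 in Ifnar1-/- cells. So did the fibroblast markers, 5 of 7 above background on every array (Pdgfrb on 27 and Pdgfra on 0), at 9.85 to 11.38 in WT and 11.55 to 13.41 in Ifnar1-/- cells. Within each treatment the dendritic cell markers (3 of 7 above background on every array) were also higher in Ifnar1-/- cells without overlap. Untreated, their summed level was 16.33 to 16.58 in WT and 16.84 to 17.47 in Ifnar1-/- cells. The mast cell and basophil markers (1 of 6 above background on every array) were lower within each treatment, untreated at 9.11 to 9.39 in WT and 8.6 to 8.82 in Ifnar1-/- cells. The part of these lists in the genotype differences was not tested. In such bulk samples fewer cells of a type and less RNA per cell cannot be told apart.

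One array goes against its label, the Ifnar1-/- LPS+zVAD+Nec1 replicate 2. Over the 3980 genes that LPS changed in Ifnar1-/- cells, with untreated cells set to 0 and LPS to 1, its median position was 0.012, where replicate 1 stood at 0.709 and the LPS+zVAD arrays at 0.812 and 0.793. Its correlation with replicate 1 was 0.947, against 0.973 to 0.991 in the other 15 groups, and among the group means it was most like the Ifnar1-/- IFNβ+zVAD+Nec1 group (r = 0.993). Of the 8 genes, Nos2, Slc7a2, Ass1, Gch1 and Acod1 split in the same way, being higher on replicate 1, and Arg1, Arg2 and Odc1 were lower on replicate 1 than on replicate 2. For Odc1 this is the same split, since its Ifnar1-/- arrays read 11.28 and 11.20 with LPS and 12.04 and 11.98 untreated. Acod1 read 18.09 on replicate 1 of the library labelled LPS+zVAD+Nec1 and 9.78 on replicate 2, Slc7a2 read 11.74 and 8.19, and Gch1 read 15.41 and 13.09, whereas Arg2 read 6.93 and 8.55 and Odc1 11.68 and 12.06, in log2 intensity. Most changes that use this group are given with and without replicate 2, whereas orders of group means and correlations between genes use both arrays. Since all groups share 1 estimate of the spread, calls gained elsewhere once replicate 2 is left out are named as well. The lone replicate 1 is then assumed to vary like the other groups.

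**Figure D1:**
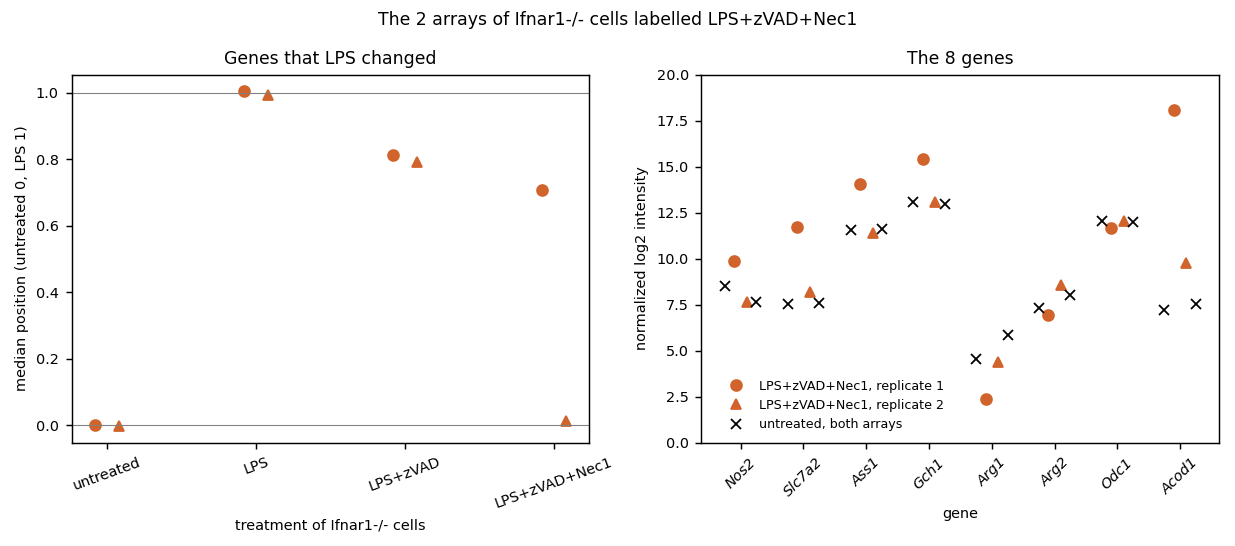
Both arrays of Ifnar1-/- cells labelled LPS+zVAD+Nec1. The left panel plots each array's median position between untreated cells (0) and LPS-treated cells (1) over the genes that LPS changed, and the right panel plots the normalized log2 intensity of the 8 genes on these 2 arrays (filled circle and triangle) beside the 2 untreated Ifnar1-/- arrays (crosses). Replicate 2 lies at 0.012 and near the untreated arrays for most of the genes, whereas replicate 1 lies at 0.709.

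The promoters of Acod1, Gch1 and Ass1 are printed because these genes rose together with IFNβ and with LPS in WT cells. They come from the RefSeq table for GRCm38.p6, which held 4 of the 8 genes (Ass1, Odc1, Gch1 and Acod1), and each run is the 250 bases before the transcription start, 5′ to 3′ along the gene's strand, with matched motifs in capitals. The Acod1 run is chr14:103046762-103047011 (plus strand), the Gch1 run is chr14:47189414-47189663 (minus strand) and the Ass1 run is chr2:31470020-31470269 (plus strand).
Acod1: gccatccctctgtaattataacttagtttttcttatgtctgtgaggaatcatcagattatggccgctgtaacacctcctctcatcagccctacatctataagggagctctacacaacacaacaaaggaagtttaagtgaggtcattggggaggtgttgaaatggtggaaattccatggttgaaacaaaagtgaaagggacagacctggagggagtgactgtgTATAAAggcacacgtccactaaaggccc
Gch1: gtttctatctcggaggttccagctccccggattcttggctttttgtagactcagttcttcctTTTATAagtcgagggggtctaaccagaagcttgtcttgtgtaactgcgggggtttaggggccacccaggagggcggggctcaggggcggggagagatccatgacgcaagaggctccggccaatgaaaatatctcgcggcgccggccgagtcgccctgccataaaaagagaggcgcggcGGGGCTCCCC
Ass1: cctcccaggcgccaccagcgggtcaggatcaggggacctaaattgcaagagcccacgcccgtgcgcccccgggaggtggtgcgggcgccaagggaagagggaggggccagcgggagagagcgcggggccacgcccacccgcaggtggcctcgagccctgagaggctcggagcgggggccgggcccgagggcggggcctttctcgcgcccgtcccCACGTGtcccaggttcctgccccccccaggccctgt
The Acod1 run holds a TATA box (TATAAA) at -28 to -23 from the start. The Gch1 run holds the NF-kB consensus at -10 to -1 and the TATA letters on the other strand at -188 to -183, and the Ass1 run holds an E-box (CACGTG) at -36 to -31. Searched on both strands in 27025 promoters of this length, the TATA box letters were in 13%, the NF-kB consensus in 3.75% and the E-box in 6.05%. The interferon-stimulated response element (in 3.04% of promoters), the gamma-activated site (TTCNNNGAA, in 7.18%) and the C/EBP motif (TTGCNNCAA, in 1.78%) matched in none of the 4 promoters, and Odc1 had no match to any of the 6. These are letter matches in 1 short window and show no binding.

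Nos2 had the largest log2 change of the 8 genes with LPS in WT cells. Its probe lies on chromosome 11 of mm9, from 78773567 to 78773626. In untreated WT cells its log2 intensity was 8.15 and 7.86 on replicates 1 and 2, with LPS 16.49 and 15.49, with IFNβ 12.88 and 12.80, and with zVAD 8.29 and 8.08. In WT cells with LPS+zVAD it read 14.90 and 13.62, with IFNβ+zVAD 13.69 and 14.08, with LPS+zVAD+Nec1 16.31 and 16.22, and with IFNβ+zVAD+Nec1 13.80 and 13.49. All arrays with LPS or IFNβ lay above the untreated arrays, and zVAD alone overlapped them. In Ifnar1-/- cells the log2 intensity was 8.51 and 7.66 untreated, 11.38 and 11.28 with LPS, 12.60 and 12.48 with LPS+zVAD, and 9.84 and 7.64 with LPS+zVAD+Nec1. The other Ifnar1-/- arrays, with IFNβ, zVAD, IFNβ+zVAD or IFNβ+zVAD+Nec1, read 7.35 to 8.52 and all these groups overlapped the untreated one.

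LPS raised Nos2 by 7.98 ± 0.56 (log2 change ± SE, 253-fold, adjusted p = 1.96e-08) in WT cells and by 3.24 ± 0.56 (9.48-fold, adjusted p = 0.000423) in Ifnar1-/- cells. The difference between the genotypes' changes was -4.74 ± 0.79 log2 (Ifnar1-/- minus WT, adjusted p = 0.00105). IFNβ raised it 28.5-fold in WT cells (log2 change 4.83, adjusted p = 2.29e-06), while in Ifnar1-/- cells the log2 change was -0.08, with a 95% interval of -1.25 to 1.1. The largest Nos2 change of the 7 WT treatments was with LPS+zVAD+Nec1 (log2 change 8.25, 305.5-fold), and in the order of group means that group and LPS overlapped. Next came LPS+zVAD, IFNβ+zVAD and IFNβ+zVAD+Nec1, each overlapping its neighbour, then IFNβ, then Ifnar1-/- LPS+zVAD and Ifnar1-/- LPS, which did not overlap their neighbours. The 8 groups with the lowest means, from Ifnar1-/- LPS+zVAD+Nec1 down, each overlapped the next.

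**Figure D2:**
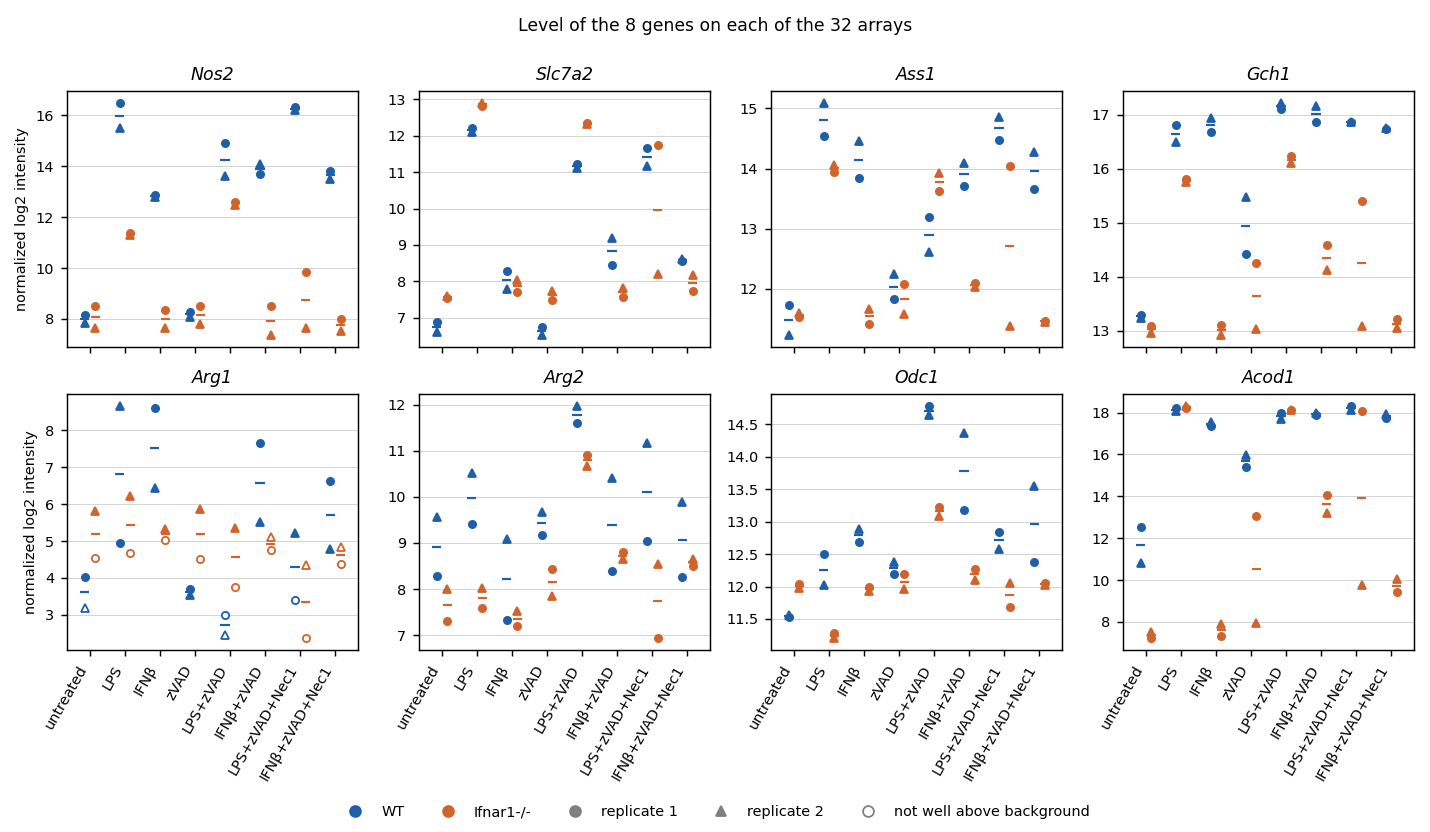
Normalized log2 intensity (vertical axis) of each of the 8 genes on all 32 arrays, by treatment, with WT in blue and Ifnar1-/- in orange, replicate 1 as circles, replicate 2 as triangles, group means as short lines and open marks where the spot was not well above background. Nos2 of WT cells with LPS stands at 16.49 and 15.49 and that of Ifnar1-/- cells at 11.38 and 11.28, while Acod1 reaches about the same level in both genotypes with LPS.

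The arginine importer Slc7a2 rose with LPS to a like extent in both genotypes. Its probe lies on chromosome 8, from 42002869 to 42002928. The WT log2 intensity was 6.88 and 6.61 untreated, 12.21 and 12.10 with LPS, 11.22 and 11.10 with LPS+zVAD, and 11.68 and 11.17 with LPS+zVAD+Nec1. In WT cells with IFNβ it was 8.28 and 7.79, with IFNβ+zVAD 8.44 and 9.20, with IFNβ+zVAD+Nec1 8.56 and 8.62, and with zVAD 6.74 and 6.51. Every WT array with LPS was thus above every WT array with IFNβ. The Ifnar1-/- log2 intensity was 7.55 and 7.59 untreated, 12.82 and 12.90 with LPS, 12.34 and 12.31 with LPS+zVAD, 11.74 and 8.19 with LPS+zVAD+Nec1, and 7.50 to 8.18 in the remaining 4 groups. The 2 Ifnar1-/- groups with LPS or LPS+zVAD had the highest means of all 16, and neither overlapped its neighbour in the order.

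LPS raised Slc7a2 by 5.41 ± 0.63 (log2 change ± SE, 42.6-fold, adjusted p = 2.67e-06) in WT and by 5.30 ± 0.63 (39.3-fold, adjusted p = 3.45e-05) in Ifnar1-/- cells. The difference of the changes was -0.12 log2, with a 95% interval of -1.98 to 1.75. With IFNβ the WT log2 change was 1.29 (adjusted p = 0.123), although both arrays lay above both untreated arrays. This result gained a call (adjusted p = 0.000308) when the array that goes against its label was left out, and the SD of its group was 2.51 log2 against 0.02 to 0.53 in the other 15 groups. IFNβ+zVAD raised Slc7a2 4.21-fold in WT cells (adjusted p = 0.0139) and IFNβ+zVAD+Nec1 3.60-fold (adjusted p = 0.0312). Both of these calls were lost when WT untreated replicate 2 was left out (adjusted p = 0.0801 and 0.143). The first was also lost without WT IFNβ+zVAD replicate 2 (adjusted p = 0.112), and the second without WT untreated replicate 1 or either WT IFNβ+zVAD+Nec1 array (adjusted p = 0.0813 to 0.103).

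Ass1, which returns citrulline toward arginine, rose with LPS and, in WT cells, with IFNβ. The probe used lies on chromosome 2, from 31376068 to 31376127. The WT log2 intensity was 11.73 and 11.22 untreated, 14.54 and 15.09 with LPS, 13.84 and 14.46 with IFNβ, and 13.20 and 12.61 with LPS+zVAD. In WT cells it was 13.71 and 14.10 with IFNβ+zVAD, 14.48 and 14.87 with LPS+zVAD+Nec1, 13.66 and 14.27 with IFNβ+zVAD+Nec1, and 11.82 and 12.24 with zVAD. Within WT cells the LPS+zVAD arrays lay below those of all other groups with LPS or IFNβ and above the untreated ones. The Ifnar1-/- log2 intensity was 11.53 and 11.60 untreated, 13.94 and 14.06 with LPS, 13.63 and 13.92 with LPS+zVAD, 14.04 and 11.39 with LPS+zVAD+Nec1, and 11.41 to 12.10 in the remaining groups.

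LPS raised Ass1 by 3.34 ± 0.52 (log2 change ± SE, 10.1-fold, adjusted p = 5.36e-05) in WT and by 2.44 ± 0.52 (5.44-fold, adjusted p = 0.00208) in Ifnar1-/- cells, and the difference was not called (-0.90 log2, adjusted p = 0.603, 95% interval -2.44 to 0.64). IFNβ raised it 6.39-fold in WT cells (adjusted p = 0.000533) and the change in Ifnar1-/- cells was -0.02 log2, a difference of -2.69 ± 0.73 (adjusted p = 0.0149). That difference was lost without WT untreated replicate 2, WT IFNβ replicate 2 or Ifnar1-/- IFNβ replicate 1 (adjusted p = 0.0621, 0.0598 and 0.0504). In the order of the 16 means, WT LPS and WT LPS+zVAD+Nec1 overlapped each other and stood above the rest, and the groups from WT IFNβ down to Ifnar1-/- LPS+zVAD overlapped one another in turn. The second Ass1 probe, on chromosome 2 from 31375998 to 31376057, gave a difference between the genotypes' changes with IFNβ of -2.64 log2. Untreated Ifnar1-/- cells stood above untreated WT cells by 0.60 log2 on this probe and by 0.09 on the first. With IFNβ they stood below WT cells, at -2.04 log2 on the second probe and -2.61 on the first.

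Gch1, the entry to the cofactor of nitric oxide synthase, reached its upper level with either stimulus in WT cells. Its brightest probe lies on chromosome 14, from 47775348 to 47775407. The WT log2 intensity was 13.30 and 13.24 untreated, 16.80 and 16.50 with LPS, 16.68 and 16.93 with IFNβ, and 14.42 and 15.47 with zVAD. The other 4 WT groups read 16.73 to 17.22, and the 6 WT groups with LPS or IFNβ each overlapped their neighbour in the order of means. In Ifnar1-/- cells the log2 intensity was 13.10 and 12.96 untreated, 15.81 and 15.75 with LPS, 16.23 and 16.10 with LPS+zVAD, and 15.41 and 13.09 with LPS+zVAD+Nec1. It was 14.58 and 14.12 with IFNβ+zVAD, 14.25 and 13.04 with zVAD, 13.11 and 12.92 with IFNβ, and 13.22 and 13.05 with IFNβ+zVAD+Nec1. The IFNβ+zVAD arrays of Ifnar1-/- cells thus lay above the untreated ones, while their IFNβ arrays did not.

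LPS raised Gch1 by 3.38 ± 0.49 (log2 change ± SE, 10.4-fold, adjusted p = 2.62e-05) in WT cells and by 2.75 ± 0.49 (6.71-fold, adjusted p = 0.000556) in Ifnar1-/- cells, with a difference of -0.64 log2 that was not called (95% interval -2.09 to 0.82). IFNβ raised it 11.6-fold in WT cells (adjusted p = 1.89e-05), and the difference between the genotypes' changes was -3.56 ± 0.69 (adjusted p = 0.00139). With zVAD alone both WT arrays were above both untreated arrays, at a log2 change of 1.68 (adjusted p = 0.468, and 0.0377 without the array that goes against its label). The second Gch1 probe, on chromosome 14 from 47773797 to 47773856, gave log2 changes of 2.59 with LPS and 2.85 with IFNβ in WT cells, of the same sign as the first.

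Arg1 was dim, and its calls are the least secure of the 8. Its probe, on chromosome 10 from 24636194 to 24636253, was well above background on 17 of 32 arrays, just past the filter of 50% of arrays. In WT cells the log2 intensity was 4.02 and 3.19 untreated (1 of 2 arrays above background), 4.95 and 8.67 with LPS, 8.60 and 6.44 with IFNβ, 7.65 and 5.53 with IFNβ+zVAD, and 3.01 and 2.46 with LPS+zVAD (0 of 2 above background). It was 3.71 and 3.54 with zVAD, 3.41 and 5.22 with LPS+zVAD+Nec1 (1 of 2 above background), and 6.64 and 4.78 with IFNβ+zVAD+Nec1. The SD between replicates reached 2.63 log2 in the WT LPS group and 1.52 in the WT IFNβ group.

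IFNβ raised Arg1 in WT cells by 3.91 ± 1.09 (log2 change ± SE, adjusted p = 0.00876), LPS by 3.20 ± 1.09 (adjusted p = 0.0242) and IFNβ+zVAD by 2.98 ± 1.09 (adjusted p = 0.0380). Since 1 of the 2 untreated arrays was not above background, the sizes of these changes are uncertain and no fold is given. Each of these calls rested on single arrays, and those with LPS and IFNβ+zVAD were lost in a fit of only the groups compared (adjusted p = 0.131 and 0.0613). The IFNβ call was lost without WT untreated replicate 2 (adjusted p = 0.0716) or WT IFNβ replicate 1 (adjusted p = 0.123), and the LPS call without WT untreated replicate 2 (adjusted p = 0.138) or WT LPS replicate 2 (log2 change 1.35, adjusted p = 0.387). The IFNβ+zVAD call was lost without either WT untreated array (adjusted p = 0.0705 and 0.187) or WT IFNβ+zVAD replicate 1 (adjusted p = 0.295). The Arg1 probe of Ifnar1-/- cells read 2.36 to 6.23 log2 over all 16 arrays, was above background on 5 of them, and no treatment was called. All neighbours in the order of the 16 Arg1 means overlapped.

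The mitochondrial arginase Arg2 rose with LPS+zVAD in both genotypes. Its probe lies on chromosome 12, from 80252972 to 80253031. In WT cells the log2 intensity was 8.28 and 9.56 untreated, 9.41 and 10.53 with LPS, 7.33 and 9.09 with IFNβ, 11.60 and 11.97 with LPS+zVAD, 9.04 and 11.16 with LPS+zVAD+Nec1, and 8.26 to 10.40 in the remaining 3 groups. The Ifnar1-/- log2 intensity was 7.31 and 8.00 untreated, 7.59 and 8.03 with LPS, 10.90 and 10.68 with LPS+zVAD, 6.93 and 8.55 with LPS+zVAD+Nec1, and 7.20 to 8.81 in the remaining 4 groups. The LPS+zVAD arrays were the highest within each genotype, with no overlap. LPS+zVAD raised Arg2 7.27-fold in WT (log2 change 2.86 ± 0.77, adjusted p = 0.0041) and 8.79-fold in Ifnar1-/- cells (log2 change 3.14 ± 0.77, adjusted p = 0.00493), and the difference of the changes was 0.27 log2 with a 95% interval of -2.0 to 2.55. The WT call was lost without WT untreated replicate 1 (adjusted p = 0.0607). With LPS alone the log2 changes were 1.05 in WT (adjusted p = 0.307) and 0.16 in Ifnar1-/- cells (adjusted p = 0.930).

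Odc1, which commits ornithine to polyamines, was highest with LPS+zVAD in both genotypes. The brightest of its 4 probes lies on chromosome 12, from 17557831 to 17557890. In WT cells its log2 intensity was 11.53 and 11.55 untreated, 12.50 and 12.02 with LPS, 12.69 and 12.89 with IFNβ, and 12.20 and 12.37 with zVAD. It was 14.79 and 14.64 with LPS+zVAD, 13.19 and 14.37 with IFNβ+zVAD, 12.84 and 12.58 with LPS+zVAD+Nec1, and 12.37 and 13.55 with IFNβ+zVAD+Nec1. The WT LPS+zVAD arrays stood above all others, with no overlap. The Ifnar1-/- arrays read 12.04 and 11.98 untreated, 11.28 and 11.20 with LPS, 13.23 and 13.09 with LPS+zVAD, and 11.68 to 12.27 in the remaining 5 groups. On this probe the Ifnar1-/- LPS arrays thus lay below the Ifnar1-/- untreated ones and had the lowest mean of the 16 groups.

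LPS+zVAD raised Odc1 by 3.18 ± 0.32 (log2 change ± SE, 9.03-fold, adjusted p = 1.95e-07) in WT cells and by 1.16 ± 0.32 (2.23-fold, adjusted p = 0.0113) in Ifnar1-/- cells, and the changes differed by -2.02 ± 0.45 (adjusted p = 0.00496). The Ifnar1-/- call was lost without either Ifnar1-/- untreated array (adjusted p = 0.05 and 0.0658) or Ifnar1-/- LPS+zVAD replicate 1 (adjusted p = 0.0794). IFNβ+zVAD raised it 4.73-fold in WT cells (adjusted p = 2.54e-05), against a log2 change of 0.18 in Ifnar1-/- cells, and the changes differed by -2.06 ± 0.45 (adjusted p = 0.00366). In WT cells IFNβ raised Odc1 2.38-fold, LPS+zVAD+Nec1 2.25-fold and IFNβ+zVAD+Nec1 2.67-fold (adjusted p = 0.00505, 0.00664 and 0.00229). The last of these was lost without WT IFNβ+zVAD+Nec1 replicate 2 (adjusted p = 0.0668) or in a fit of only the groups compared (adjusted p = 0.106), and the one before it without WT LPS+zVAD+Nec1 replicate 1 (adjusted p = 0.0592). With LPS alone the log2 changes were 0.72 in WT (adjusted p = 0.0819) and -0.77 in Ifnar1-/- cells (adjusted p = 0.0920). Their difference of -1.49 was not called (adjusted p = 0.0559), but passed with the slide as a block (adjusted p = 0.0281) or without the array that goes against its label (adjusted p = 0.0459).

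The 4 Odc1 probes agreed on the rise with LPS+zVAD and on how the genotypes' changes differed, but not on the genotype difference within LPS or IFNβ. In WT cells with LPS+zVAD they changed by 3.18 to 4.55 log2 against untreated, and against LPS by 2.45 to 3.27 in WT and by 1.82 to 2.08 in Ifnar1-/- cells. With LPS in Ifnar1-/- cells the 4 probes ran from -0.77 to 0.10 log2, so the sign depended on the probe. On all but the brightest probe, WT untreated cells had the lowest mean of the 16 groups. Untreated Ifnar1-/- cells stood above untreated WT cells on all 4 probes, by 0.47 to 1.19 log2, and this enters the differences of the changes. The Ifnar1-/- change minus the WT change was -1.49 to -1.18 log2 over the probes with LPS, -2.49 to -2.02 with LPS+zVAD and -2.29 to -2.01 with IFNβ+zVAD. Between the genotypes within a treatment they ran from -1.02 to -0.08 log2 with LPS and from -0.83 to 0.04 with IFNβ, against -1.58 to -1.28 with LPS+zVAD, and the mean over the probes was not called with LPS or IFNβ (adjusted p = 0.291 and 0.315).

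Acod1, the itaconate enzyme, reached about the same level with LPS in both genotypes from unequal starting levels. Its probe, printed 10 times on each array, lies on chromosome 14 of mm9, from 103455171 to 103455231, and the median SD between its spots on an array was 0.075 log2. In WT cells the log2 intensity was 12.53 and 10.81 untreated, 15.39 and 15.98 with zVAD, and 17.35 to 18.32 on the 12 arrays with LPS or IFNβ, alone or combined. On the Ifnar1-/- arrays it was 7.21 and 7.50 untreated, 18.20 and 18.30 with LPS, 18.13 and 18.14 with LPS+zVAD, and 7.31 and 7.91 with IFNβ. Those 4 Ifnar1-/- arrays with LPS or LPS+zVAD lay within the range of the WT arrays with a stimulus, and those with IFNβ near the untreated ones. The remaining Ifnar1-/- arrays read 13.06 and 7.95 with zVAD, 14.07 and 13.18 with IFNβ+zVAD, 18.09 and 9.78 with LPS+zVAD+Nec1, and 9.44 and 10.03 with IFNβ+zVAD+Nec1. The zVAD pair differed by a wide margin between replicates, with an SD of 3.61 log2, second to the 5.88 of the group with the array that goes against its label. In WT cells both zVAD arrays lay above both untreated arrays, at group means of 15.69 and 11.67, and this change was not called.

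LPS raised Acod1 by 6.47 ± 1.65 (log2 change ± SE, 88.8-fold, adjusted p = 0.00385) in WT and by 10.90 ± 1.65 (1905-fold, adjusted p = 0.00016) in Ifnar1-/- cells. The difference of 4.42 log2 was not called (adjusted p = 0.320, 95% interval -0.46 to 9.31), and passed without the array that goes against its label (adjusted p = 0.0446). In WT cells IFNβ raised it 55.5-fold (log2 change 5.80, adjusted p = 0.00997), while in Ifnar1-/- cells the log2 change was 0.25, with a 95% interval of -3.20 to 3.71. That difference of -5.54 log2 was not called either (adjusted p = 0.108, and 0.00591 without that array). LPS+zVAD, IFNβ+zVAD, LPS+zVAD+Nec1 and IFNβ+zVAD+Nec1 raised it 73.1-, 76.9-, 94.1- and 72.1-fold in WT cells (adjusted p = 0.00391, 0.00552, 0.00357 and 0.0074). Without WT untreated replicate 2, the lower of the 2, the IFNβ call was lost (adjusted p = 0.0913), as were those with IFNβ+zVAD (adjusted p = 0.0596) and IFNβ+zVAD+Nec1 (adjusted p = 0.0756). IFNβ+zVAD in Ifnar1-/- cells gave a log2 change of 6.27 with no overlap of the arrays, which was not called (adjusted p = 0.461, and 0.0403 without the array that goes against its label).

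**Figure D3:**
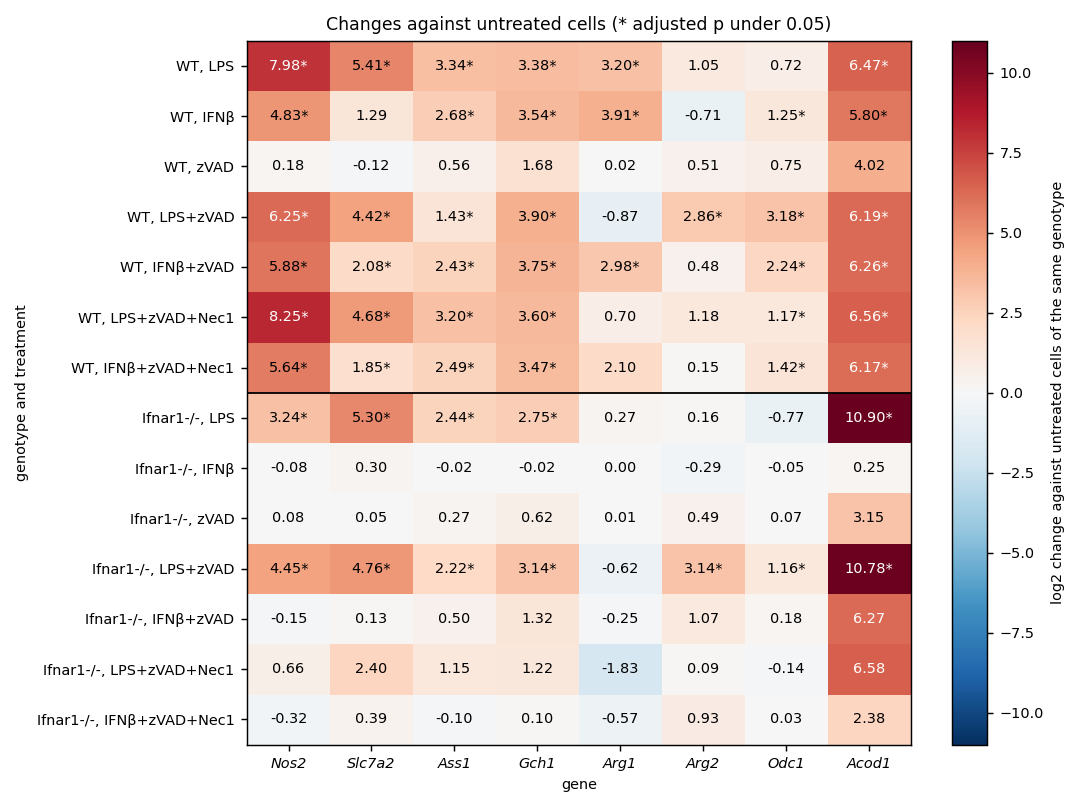
Log2 change against untreated cells of the same genotype for the 8 genes (columns) in 7 treatments of WT and of Ifnar1-/- cells (rows), with an asterisk at adjusted p under 0.05. WT cells show calls in all treatments but zVAD, and Ifnar1-/- cells only with LPS (5 genes) and LPS+zVAD (7 genes).

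Counted by comparison, in WT cells LPS raised 6 of the 8 genes (41.1% of all genes tested were called, in either direction), IFNβ 6 (35.3%), LPS+zVAD 7 (50.9%), IFNβ+zVAD 7 (37.6%), LPS+zVAD+Nec1 6 (40.9%) and IFNβ+zVAD+Nec1 6 (31.7%). All of these calls were increases. With IFNβ+zVAD and with IFNβ+zVAD+Nec1, leaving out any 1 array of the groups compared cost some call. Slc7a2 did not pass with IFNβ, Odc1 did not pass with LPS, Arg1 did not pass with LPS+zVAD or with either Nec1 combination, and Arg2 passed only with LPS+zVAD. In WT cells with zVAD alone limma called 0 of the 8, where 0.00622% of all genes were called and 3 of the 8 had an unadjusted p under 0.05.

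In Ifnar1-/- cells LPS raised 5 of the 8 (24.7% of all genes called) and LPS+zVAD 7 (28.1%). With IFNβ limma called 0 of the 8 and 0% of all genes, and with zVAD likewise 0 of the 8 and 0%, and no member had an unadjusted p under 0.05 in either. With IFNβ+zVAD it called 0 of the 8 (0.00622% of all genes; 2 of the 8 at an unadjusted p under 0.05) and with IFNβ+zVAD+Nec1 0 of the 8 (1.76%; 0 at an unadjusted p under 0.05). For the group labelled LPS+zVAD+Nec1 it called 0 of the 8 (1.31% of all genes; 4 at an unadjusted p under 0.05), and 5 once replicate 2 was left out. These 5 were Acod1 (log2 change 10.74), Slc7a2 (4.17), Ass1 (2.48), Gch1 (2.38) and Nos2 (1.75), with adjusted p from 6.46e-06 to 0.0340.

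Whether the 2 genotypes responded alike was tested as the difference of their changes. With LPS 1 of the 8 genes differed (Nos2, with 6.63% of all genes called), and with IFNβ 3 (Nos2, Ass1 and Gch1, 18.8%). With LPS+zVAD 1 differed (Odc1, 16.1%), with IFNβ+zVAD 3 (Nos2, Odc1 and Gch1, 19.2%), with LPS+zVAD+Nec1 2 (Nos2 and Gch1, 17.8%) and with IFNβ+zVAD+Nec1 4 (Nos2, Ass1, Odc1 and Gch1, 18.1%). In each of these the change was lower in Ifnar1-/- cells. Same-numbered arrays of a genotype share a slide, and with the slide as a block Odc1 was gained with LPS (adjusted p = 0.0281), Arg1 and Odc1 with IFNβ (adjusted p = 0.0427 and 0.0301) and Nos2 with LPS+zVAD (adjusted p = 0.0247). It also gained Ass1 with IFNβ+zVAD (adjusted p = 0.0480), and Ass1 and Odc1 with LPS+zVAD+Nec1 (adjusted p = 0.0394 and 0.0307), and lost none. A fit of only the groups compared lost Gch1 with LPS+zVAD+Nec1 (adjusted p = 0.205) and Odc1 with IFNβ+zVAD+Nec1 (adjusted p = 0.116). With zVAD alone limma called 0 of the 8 and 0% of all genes, and 0 of the 8 had an unadjusted p under 0.05. Without the array that goes against its label the Gch1 difference with LPS+zVAD+Nec1 fell to -1.22 log2 (adjusted p = 0.122), whereas that of Nos2 was -6.50 (adjusted p = 1.29e-05).

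Adding zVAD to LPS lowered Nos2 and Ass1 and raised Odc1 in WT cells, as the values above showed. In WT cells 4 of the 8 genes changed (34.6% of all genes called). Nos2 fell by 1.73 on the log2 scale (3.32-fold, adjusted p = 0.0212) and Ass1 by 1.91 (3.76-fold, adjusted p = 0.00733), and in both the LPS+zVAD arrays lay below the LPS arrays without overlap. Odc1 rose by 2.45 ± 0.32 (5.48-fold, adjusted p = 1.20e-05). On group means, Arg1 was at least 8.81-fold higher with LPS than with LPS+zVAD (adjusted p = 0.00657). The probe was not well above background on either LPS+zVAD array. The size is uncertain, since the 2 LPS arrays read 4.95 and 8.67 and the bound leaves out that spread. The bound sets the mean of the LPS arrays against the lowest signal counted as above background on each dim array, or the probe's own where that was higher. Gch1 and Acod1 changed by 0.51 and -0.28 log2 and were not called.

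Several of these calls rested on 1 array. Nos2 was lost without WT LPS replicate 1 (log2 change -1.23, adjusted p = 0.180) or WT LPS+zVAD replicate 2 (-1.09, adjusted p = 0.268). Ass1 was lost without WT LPS replicate 2 (adjusted p = 0.0809) or WT LPS+zVAD replicate 2 (adjusted p = 0.0827), and Arg1 without WT LPS replicate 2 (adjusted p = 0.195) or WT LPS+zVAD replicate 2 (adjusted p = 0.0556). Odc1 kept its call without any 1 array. A fit of only the groups compared lost Nos2 and Arg1 (adjusted p = 0.109 and 0.0857). Arg2 changed by 1.82 log2 with no overlap (adjusted p = 0.0755, and 0.00259 with the slide as a block), and Slc7a2 by -1.0 (adjusted p = 0.252, and 0.00277 without the array that goes against its label).

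Added to LPS in Ifnar1-/- cells, zVAD changed 2 of the 8 genes (8.24% of all genes called), both upward. Odc1 rose by 1.92 ± 0.32 log2 (3.80-fold, adjusted p = 0.000935) and Arg2 by 2.98 ± 0.77 (7.87-fold, adjusted p = 0.0202), although the Arg2 call was lost without any 1 of the 4 arrays (adjusted p = 0.0801 to 0.154). Nos2 stood higher on both LPS+zVAD arrays than on both LPS arrays, by 1.21 log2 (adjusted p = 0.215, and 0.0463 with the slide as a block), the opposite direction to WT cells. The difference between the genotypes was called for 1 of the 8 genes, Nos2 (2.94 ± 0.79 log2, adjusted p = 0.0452), where 3.57% of all genes were called. It was lost without any 1 of 7 of the 8 arrays concerned (adjusted p = 0.0681 to 0.221), all but WT LPS+zVAD replicate 1, and in a fit of only the groups compared (adjusted p = 0.155). Added to IFNβ, zVAD gave 0 calls of the 8 by limma in WT cells (0% of all genes; 1 at an unadjusted p under 0.05), 0 in Ifnar1-/- cells (0.00622%; 2 at an unadjusted p under 0.05) and 0 for the difference of the genotypes (0.00622%; 1 at an unadjusted p under 0.05).

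**Figure D4:**
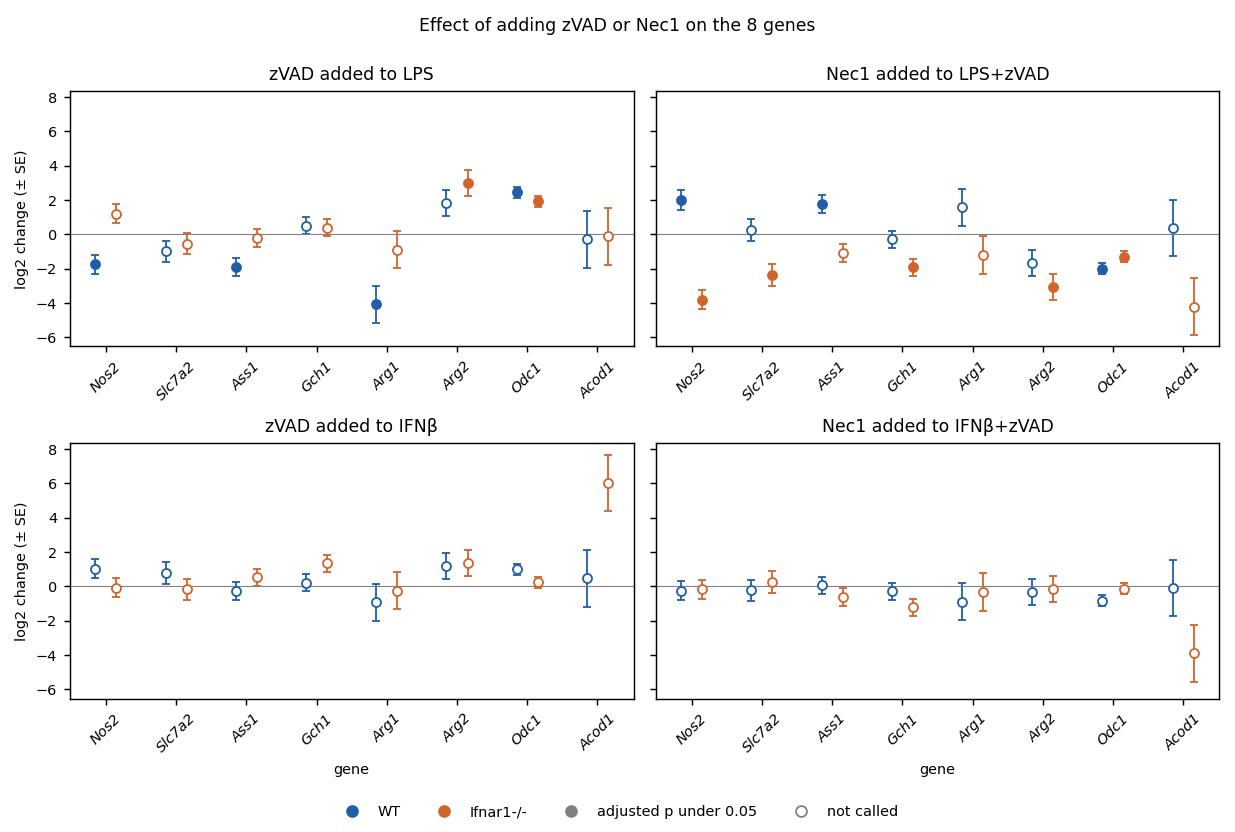
Log2 change (points, with bars of 1 SE) of the 8 genes when zVAD was added to LPS or to IFNβ and when Nec1 was added to LPS+zVAD or to IFNβ+zVAD, with WT in blue, Ifnar1-/- in orange and filled points at adjusted p under 0.05. In WT cells Nos2 fell by 1.73 with zVAD added to LPS and rose by 2.0 with Nec1 added to LPS+zVAD, and the Ifnar1-/- points of the latter comparison rest in part on the array that goes against its label.

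Nec1 added to LPS+zVAD moved Nos2, Ass1 and Odc1 of WT cells back toward their level with LPS alone. In WT cells 3 of the 8 genes changed (28.4% of all genes called). Nos2 rose by 2.0 ± 0.56 log2 (4.01-fold, adjusted p = 0.0108), Ass1 rose by 1.77 ± 0.52 (3.41-fold, adjusted p = 0.0149) and Odc1 fell by 2.0 on the log2 scale (4.01-fold, adjusted p = 0.000134), each without overlap of the arrays. In a fit of only these 2 groups, with 4 arrays behind the spread, none of the 3 passed (adjusted p = 0.0778, 0.0602 and 0.0510). These comparisons share the LPS+zVAD arrays with the ones on zVAD, so the opposite signs are not independent. Nos2 was lost without WT LPS+zVAD replicate 2 (adjusted p = 0.183) or WT LPS+zVAD+Nec1 replicate 1 (adjusted p = 0.0558), and Ass1 without WT LPS+zVAD replicate 2 (adjusted p = 0.140) or WT LPS+zVAD+Nec1 replicate 2 (adjusted p = 0.104). Arg2 changed by -1.68 log2 (adjusted p = 0.115, and 0.00541 with the slide as a block).

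Of the 8 genes, 5 were called lower in the Ifnar1-/- group labelled LPS+zVAD+Nec1 than in Ifnar1-/- cells with LPS+zVAD (18.8% of all genes called). Nos2 fell by 3.80 on the log2 scale (adjusted p = 0.000222), Arg2 by 3.05 (adjusted p = 0.0102), Slc7a2 by 2.36 (adjusted p = 0.0142), Gch1 by 1.92 (adjusted p = 0.0111) and Odc1 by 1.29 (adjusted p = 0.00956). None of the 5 passed in a fit of only these 2 groups (adjusted p = 0.223 to 0.401). Without replicate 2 Nos2 fell by 2.70 (adjusted p = 0.00419) and Odc1 by 1.48 (adjusted p = 0.0248), Arg2 kept its call, and Slc7a2 (-0.58 log2, adjusted p = 0.249) and Gch1 (-0.76, adjusted p = 0.262) lost theirs. Acod1 went from -4.20 log2 (adjusted p = 0.0826) to -0.04 (adjusted p = 0.988). The change differed between the genotypes for 2 of the 8 genes (9.92% of all genes called), Nos2 (-5.80 log2, adjusted p = 0.000436) and Ass1 (-2.83, adjusted p = 0.0212), and neither passed in a fit of only the 4 groups compared (adjusted p = 0.230 and 0.346). Without replicate 2 these were -4.70 (adjusted p = 0.00102) and -1.51 (adjusted p = 0.0641), so that the Nos2 difference held on replicate 1 alone. On that array Nos2 read 9.84, below the 12.60 and 12.48 of the LPS+zVAD arrays, while Acod1 read 18.09 beside 18.13 and 18.14.

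Added to IFNβ+zVAD, Nec1 gave 0 calls of the 8 by limma in WT cells (0% of all genes; 1 at an unadjusted p under 0.05), 0 in Ifnar1-/- cells (1.57%; 2 at an unadjusted p under 0.05) and 0 for the difference (0.00622%; 0 at an unadjusted p under 0.05). The 2 in Ifnar1-/- cells were Acod1 (-3.89 log2) and Gch1 (-1.22), whose arrays did not overlap, and both passed without the array that goes against its label (adjusted p = 0.0305 and 0.0421).

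Within a treatment, the genes that differed between the genotypes were all lower in Ifnar1-/- cells, with the reservation that genotype and slide cannot be told apart. In untreated cells limma called 0 of the 8 (8.73% of all genes; 1 at an unadjusted p under 0.05), and with zVAD 0 (8.21%; 2 at an unadjusted p under 0.05). The untreated Acod1 levels nonetheless did not overlap, at a difference of -4.31 log2 (adjusted p = 0.123, and 0.00566 without the array that goes against its label). The untreated Slc7a2 levels were higher in Ifnar1-/- cells by 0.82 log2 (adjusted p = 0.528, and 0.0312 without that array). With LPS 3 of the 8 differed (28.4% of all genes), with IFNβ 5 (43.4%), with LPS+zVAD 2 (37.3%), with IFNβ+zVAD 5 (43.4%), with LPS+zVAD+Nec1 6 (39.9%) and with IFNβ+zVAD+Nec1 5 (41.5%). With the slide as a random block Odc1 was lost with LPS, IFNβ, LPS+zVAD+Nec1 and IFNβ+zVAD+Nec1 (adjusted p = 0.0505 to 0.0865). Acod1 was lost with IFNβ+zVAD and LPS+zVAD+Nec1 (adjusted p = 0.0765 and 0.0827). With LPS, IFNβ+zVAD and LPS+zVAD+Nec1, leaving out any 1 array of the groups compared cost some call.

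Nos2 was lower in Ifnar1-/- cells in all 6 treatments with LPS or IFNβ, by -1.72 log2 with LPS+zVAD (adjusted p = 0.0204) to -7.52 with LPS+zVAD+Nec1 (adjusted p = 7.98e-09), the latter -6.42 without replicate 2. The LPS+zVAD difference was lost without WT LPS+zVAD replicate 1 (adjusted p = 0.237) or either Ifnar1-/- LPS+zVAD array (adjusted p = 0.0636 and 0.0976). Gch1 and Ass1 were lower in the 3 groups with IFNβ and in LPS+zVAD+Nec1, by -3.79 and -2.61 log2 with IFNβ itself (adjusted p = 5.20e-06 and 0.000467). Acod1 was lower by -9.86 log2 with IFNβ (adjusted p = 8.39e-05) and by -8.10 with IFNβ+zVAD+Nec1 (adjusted p = 0.000674), and with LPS the difference was 0.11, with a 95% interval of -3.34 to 3.56. In the group labelled LPS+zVAD+Nec1 Acod1 and Ass1 lost their calls without replicate 2 (-0.13 log2, adjusted p = 0.954, and -0.63, adjusted p = 0.202). Arg2 was called lower in Ifnar1-/- cells with LPS, at 7.59 and 8.03 against 9.41 and 10.53 in WT cells. It was also called lower with LPS+zVAD+Nec1, at 6.93 and 8.55 against 9.04 and 11.16. Slc7a2 and Arg1 were called in none of the 8 treatments.

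The other genes of these pathways were counted from lists drawn up beside the 8 genes. Of 19 tested genes of arginine and citrulline metabolism, LPS in WT cells raised 4 and lowered 5 (41.1% of all genes were called), with a median log2 change of -0.18 where all genes had -0.08. Pycr1, which makes proline, rose by 4.18 log2 in WT cells (adjusted p = 3.77e-05) and not detectably in Ifnar1-/- cells (0.29, adjusted p = 0.822), a difference of -3.89 (adjusted p = 0.0112). Slc7a1, a second arginine transporter, rose by 2.38 log2 with LPS and by 4.13 with LPS+zVAD in WT cells. Nostrin, which binds the endothelial nitric oxide synthase, fell by 2.09 on the log2 scale, and Ddah2, which degrades inhibitory methylarginines, fell by 1.60. Of the 19, LPS raised 3 and lowered 4 in Ifnar1-/- cells (24.7% of all genes called).

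Of 15 polyamine genes, LPS in WT cells raised 2 and lowered 6 (41.1% of all genes called), but 2 and 3 with arrays set to a common 75th percentile, so the balance rests on the scaling. The polyamine oxidase Paox fell by 3.33 on the log2 scale in WT and by 2.75 in Ifnar1-/- cells. The transporter Atp13a2 fell by 2.47 and Sat2 by 1.48 in WT cells. Azin1, which frees ornithine decarboxylase from its antizyme, rose by 1.11 log2 with LPS and by 2.49 with LPS+zVAD in WT cells, and its LPS change differed between the genotypes by -1.62 (adjusted p = 0.0307). With LPS in Ifnar1-/- cells 1 of the 15 rose and 4 fell (24.7% of all genes called), or 1 and 2 with the 75th percentile.

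Of the 7 other tetrahydrobiopterin genes, LPS in WT cells raised 1 (Pcbd1, which recycles the cofactor, 1.63 log2) and lowered 5 (41.1% of all genes called), or 3 with the 75th percentile. Among those that fell were Spr, the last enzyme of the synthesis, by 1.55, and Qdpr, which regenerates the cofactor, by 0.99 on the log2 scale. Of 14 genes around itaconate, the citric acid cycle and its carriers, LPS in WT cells raised 0 and lowered 6 (41.1% of all genes called), but raised 1 and lowered 2 with the 75th percentile. Suclg2 and Suclg1, subunits of succinyl-CoA synthetase, fell by 1.53 and 0.90, Slc25a11, a mitochondrial carrier of oxoglutarate, by 1.06 and Aco1, the cytosolic aconitase, by 1.05 on the log2 scale. With LPS in Ifnar1-/- cells, 0 tetrahydrobiopterin genes rose and 2 fell, and 1 itaconate-route gene rose and 2 fell (24.7% of all genes called).

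Of 12 transcription factors known to act on these genes, LPS in WT cells raised 5 and lowered 0 (41.1% of all genes called), among them Hif1a (2.07 log2), Nfkb1 (2.01), Cebpb (1.85) and Stat3 (1.81). In Ifnar1-/- cells LPS raised 4 and lowered 2 (24.7% of all genes called), and the Stat3 change differed between the genotypes by -1.30 log2 (adjusted p = 0.0422). Of 11 tested markers of alternative activation, with which Arg1 is usually grouped, LPS in WT cells raised 3 and lowered 2 (4 and 1 with the 75th percentile; 41.1% of all genes called), and IFNβ raised 6 and lowered 0 (35.3%). The interleukin-4 receptor chain Il4ra rose by 4.17 log2 with LPS in WT and by 1.46 in Ifnar1-/- cells, and the changes differed by -2.71 (adjusted p = 0.00248). The chemokines Ccl17 and Ccl24 rose by 3.60 and 2.90 log2 with LPS in WT cells and by 6.63 and 3.40 in Ifnar1-/- cells. Neither difference of the changes was called (3.03 and 0.50 log2, adjusted p = 0.0552 and 0.779). In WT cells the lectin Clec10a fell by 2.71 on the log2 scale with LPS but rose by 1.94 with IFNβ. With IFNβ in WT cells, where 35.3% of all genes were called, 4 arginine genes rose and 8 fell (3 and 6 with the 75th percentile), 4 polyamine genes rose and 5 fell (6 and 2), 1 tetrahydrobiopterin gene rose and 2 fell (1 and 1), 0 itaconate-route genes rose and 4 fell (0 and 0), and 6 transcription factors rose and 0 fell (7 and 0). In Ifnar1-/- cells with IFNβ limma called 0 of the 78 genes of the 6 lists, and 0 had an unadjusted p under 0.05.

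The genes whose pattern was most like that of each member were found by Pearson's correlation over the 16 group means, given as a description, since the points share slides and controls. Nos2 was most like Ppp1r15b (r = 0.977), Slc7a2 like 3930401B19Rik (0.975), Ass1 like Lcor (0.984) and Gch1 like Stx11 (0.987). Acod1 was most like Nfkbia (0.987), Birc3 (0.972) and Fas (0.972). Odc1 was most like Gm15645 (0.972) and Hipk1 (0.965), Arg2 like Rnf2 (0.946), and Arg1 like Il7 (0.853). Among the 8 genes the highest correlations were between Gch1 and Acod1 (0.942), Nos2 and Gch1 (0.920) and Nos2 and Ass1 (0.916), and Arg2 was nearest to Odc1 (0.758).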

How the data were processed

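RNA of BMDMs was hybridized to 1-colour Agilent arrays of 55681 probes, 32 arrays in all. Per the file headers, the deposited intensity values are the scanner software's processed signals, already corrected for background, and the authors also deposited normalized log2 values, used here as an alternative. The submitters' processing notes name limma. As in the study's methods, log2 intensities were brought to common quantiles, and probes well above background on at least 50% of arrays were retained. Spots flagged as outliers were left out, and the brightest retained probe stood for a gene (16089 genes). Groups came from the sample labels. One limma fit of 16 group means (R 4.3.3, limma 3.58.1, the data.table package in version 1.17.8) gave 41 comparisons, two-sided, with Benjamini-Hochberg adjustment over all genes and a threshold of 0.05. Symbols were updated through accessions for 27656 probes. The precision rests on 2 arrays per group.

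The rule for named genes took all 8 members with every probe, up to 4 called genes per pathway list with the largest WT LPS change, and the 3 genes most like each member; 1 gene that the rule took is not reported here. The members and lists were chosen with earlier results of these data known. Slide and replicate number coincide within a genotype, and same-numbered arrays deviated together, with correlations of 0.319 to 0.67 in WT and 0.167 to 0.581 in Ifnar1-/- cells over 28 pairs of treatments each. The slide as a block was therefore tried as an alternative, beside normexp correction (offset 50), a shift to a common 75th percentile, no filter, fits of only the groups compared, the mean over a gene's probes, the slide as a random block, and leaving out single arrays or the pair labelled Ifnar1-/- LPS+zVAD+Nec1. The 75th percentile moved the median log2 change of all genes by -0.295 to 0.276, and no call changed direction. The fit was tested on simulated data for WT LPS against untreated: of 50 genes each, 20 were recovered at a log2 change of 1, 31 at 2 and 48 at 4, among 15808 genes. For the genotype difference 5, 22 and 45 were recovered. In the WT comparison 12 unchanged genes were called. The simulated noise was independent between arrays and few genes changed, unlike in these data, so the rates need not hold here.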

Additional observations from a re-analysis of the deposited data

Results flagged for a closer look

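In 17 instances a gene's change differed between the genotypes by the test of the difference itself (limma, adjusted p under 0.05), and each is given as the Ifnar1-/- change minus the WT change in log2. For Nos2 the difference was -4.74 with LPS, -4.91 with IFNβ, -6.03 with IFNβ+zVAD, -7.60 with LPS+zVAD+Nec1 and -5.96 with IFNβ+zVAD+Nec1. When zVAD was added to LPS it was 2.94, and when Nec1 was added to LPS+zVAD it was -5.80. For Gch1 it was -3.56 with IFNβ, -2.43 with IFNβ+zVAD, -2.38 with LPS+zVAD+Nec1 and -3.36 with IFNβ+zVAD+Nec1. For Ass1 it was -2.69 with IFNβ, -2.59 with IFNβ+zVAD+Nec1 and -2.83 when Nec1 was added to LPS+zVAD. For Odc1 it was -2.02 with LPS+zVAD, -2.06 with IFNβ+zVAD and -1.39 with IFNβ+zVAD+Nec1. Of those that use the group labelled Ifnar1-/- LPS+zVAD+Nec1, both Nos2 differences were called without its replicate 2 (-6.50 and -4.70), and those of Gch1 (-1.22) and Ass1 (-1.51) were not.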

How the results depend on the processing

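The 8 genes gave 107 calls over the 41 comparisons, and 61 of them held under every alternative run (18 of 24 for Nos2, 13 of 17 for Gch1, 9 of 17 for Ass1, 7 of 12 for Acod1, 5 of 8 for Slc7a2, 8 of 19 for Odc1, 1 of 6 for Arg2 and 0 of 4 for Arg1). Under the alternatives 64 of 841 values, and 117 of 496 with 1 array left out, fell short of the threshold, and 0 changed direction. The limits are the 2 arrays per group, an Arg1 probe near background, slides that hold 1 genotype each, and 1 array that goes against its label and enters the spread shared by all groups. Where a fit of only the groups compared lost calls, fewer arrays stood behind the spread.

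Fits of only the groups compared moved the members changed by Nec1 from 8 to 0, those of WT and Ifnar1-/- cells with Nec1 added to LPS+zVAD from 3 and 5 to 0 and their genotype difference from 2 to 0. They moved the genotype differences of the change with LPS from 1 to 3, IFNβ from 3 to 6, LPS+zVAD from 1 to 2, IFNβ+zVAD from 3 to 5 and LPS+zVAD+Nec1 from 2 to 1. They moved WT cells with zVAD added to LPS from 4 to 2, and the genotype comparison in untreated cells from 0 to 1, with LPS+zVAD from 2 to 5 and with LPS+zVAD+Nec1 from 6 to 1. The slide as replicate block moved the genotype differences with LPS from 1 to 2, IFNβ from 3 to 5, LPS+zVAD from 1 to 2 and LPS+zVAD+Nec1 from 2 to 4, and the Ifnar1-/- LPS+zVAD+Nec1 calls from 0 to 2. It lost 0 of 81 calls. The latter count was 1 with normexp and 2 with the authors' values. The genotype difference for zVAD added to LPS went from 1 to 0 with the 75th percentile, no filter, the authors' values or only the groups compared, and the genotype comparison with zVAD from 0 to 1 with the 75th percentile. The slide as a random block left 20 of the 26 calls between genotypes.

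Without both Ifnar1-/- LPS+zVAD+Nec1 arrays, the genotype differences rose from 1 to 3 with LPS, 3 to 6 with IFNβ, 1 to 3 with LPS+zVAD, 3 to 5 with IFNβ+zVAD and 1 to 2 for zVAD added to LPS. WT cells with zVAD and Ifnar1-/- cells with IFNβ+zVAD rose from 0 to 1, Ifnar1-/- cells with Nec1 added to IFNβ+zVAD from 0 to 2, and the genotype comparisons from 0 to 2 untreated, 3 to 6 with LPS, 0 to 3 with zVAD and 2 to 5 with LPS+zVAD. Over the comparisons that do not use these arrays, genotype differences rose from 13 to 24, Nec1 calls from 3 to 5 and genotype comparisons from 20 to 33.

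Leaving out 1 array at a time gave 41 to 58 calls against untreated cells (50 with all arrays), 11 to 34 genotype differences (17), 3 to 7 with zVAD added (6), 4 to 11 with Nec1 added (8) and 21 to 38 between genotypes (26). The lowest came without WT untreated replicate 2 (41 and 11), WT LPS+zVAD replicate 2 (3), Ifnar1-/- LPS+zVAD replicate 1 (4) and Ifnar1-/- LPS replicate 1 (21). By comparison, the range was 4 to 6 for WT IFNβ and WT IFNβ+zVAD, 4 to 5 for WT IFNβ+zVAD+Nec1, 0 to 5 for Ifnar1-/- LPS+zVAD+Nec1, 1 to 4 for WT with zVAD added to LPS and 1 to 1 for Ifnar1-/- cells. With Nec1 added to LPS+zVAD it was 1 to 3 in WT, 1 to 6 in Ifnar1-/- cells and 1 to 5 for their difference. The genotype differences ranged from 1 to 2 with LPS, 2 to 3 with IFNβ or IFNβ+zVAD, 1 to 5 with LPS+zVAD+Nec1, 2 to 4 with IFNβ+zVAD+Nec1 and 0 to 1 for zVAD added to LPS. WT cells with zVAD added to IFNβ, WT cells with Nec1 added to IFNβ+zVAD and the genotype comparison with zVAD ranged from 0 to 1. The other genotype comparisons ranged from 1 to 2 with LPS or LPS+zVAD, 3 to 4 with IFNβ+zVAD, 3 to 5 with LPS+zVAD+Nec1 and 4 to 5 with IFNβ or IFNβ+zVAD+Nec1.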
